A study of Canis lupus familiaris with 33 samples.

Results

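The fibroblast growth factor (FGF) receptor genes FGFR1, FGFR3 and FGFR4, with FGFBP1, the gene of a secreted carrier of FGF ligands, were examined in canine invasive urothelial carcinoma (iUC). The 4 genes were taken by their gene symbols from a table of 25096 genes in 33 bladder samples, and each symbol matched 1 gene (ENSCAFG00000005970, ENSCAFG00000014993, ENSCAFG00000016518 and ENSCAFG00000015272, in that order). The samples were 29 iUC biopsies, collected by cystoscopy from 29 untreated dogs, and bladder mucosa from 4 other dogs, labelled as normal urothelial cells. Those 4 dogs were euthanized for reasons unrelated to the bladder, and their mucosa was separated by fine dissection. The way of collection thus differed between the groups. No experimental treatment is described for either group, prior treatment of those 4 dogs is not stated, and the labels give no ages or breeds. RNA-Seq of ribosome-depleted total RNA gave the values. Each value is a log2 expression level, normalized between samples by the trimmed mean of M values (TMM) and set relative to that gene's median over all samples, so that 0 is the median and 1 unit is a 2-fold difference. Levels can therefore be compared between samples for 1 gene, but not between genes. The FGFR2 gene was not analysed here.

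FGF receptors are receptor tyrosine kinases of the cell surface. An FGF ligand binds the receptor together with heparan sulfate, or with a klotho co-receptor for the hormone-like FGFs, and the paired receptors then phosphorylate each other and adaptors such as FRS2, which feeds the RAS-MAPK cascade. That cascade induces its own inhibitors, the sprouty and DUSP proteins, together with ETS factors such as ETV4. FGFR3 is best known in the bladder from human urothelial tumors, in which it is frequently mutated and marks luminal papillary disease, while FGFR1 is widely used in mesenchymal cells. FGFR4 pairs with beta-klotho to read the bile-acid hormone FGF19 in liver. FGFBP1 releases stored FGFs from the extracellular matrix and is made mainly by epithelia.

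In tumors against normal bladder, FGFR1 fell and FGFR4 rose, while FGFR3 and FGFBP1 lay higher on average without passing the test. The test was limma across 24471 genes, and a gene was called where its Benjamini-Hochberg adjusted p did not exceed 0.05 and the groups differed 2-fold or more. All 4 genes passed the filter on low values. Counts of tumors above or below every normal, here and below, are descriptions, since the share of all genes that separate so is not given. Of the 4, 1 was called higher, against 10.7% of all genes tested, and 1 was called lower, against 45.8% of all genes tested.

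FGFR1 stood at 1.19, 1.24, 0.90 and 1.61 in normals A to D (mean 1.23 ± 0.29, SD, n = 4). In the tumors it ran from -2.11 in tumor 18 through a median of -0.17 to 0.99 in tumor Po. All but 1 tumor lay below every normal: 28 of 29 were under the lowest normal, and only tumor Po fell inside the normal range. The difference, tumor minus normal, was -1.49 on the log2 scale (SE 0.42, 95% interval -2.34 to -0.64), a 2.82-fold lower level, with a limma adjusted p = 0.00202 and an exact two-sided permutation p = 0.00152 that was not corrected. In bulk tissue, fewer cells that express a gene and less RNA per cell cannot be told apart.

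FGFR4 showed the opposite direction. Its normals were at -1.90, -1.93, -2.61 and -2.15 (mean -2.15 ± 0.32, SD, n = 4), and the tumors spread from -2.73 in tumor 7 through a median of 0.35 to 2.19 in tumor Ja. There were 25 tumors above every normal, 2 within the normal range and 2 below it. The tumor mean was higher by 2.13 on the log2 scale (SE 0.69, interval 0.73 to 3.52), 4.37-fold, with a limma adjusted p = 0.00657 and an uncorrected exact permutation p = 0.00396. The 4 normals lay close together, whereas the tumors covered a 30.4-fold range with an SD of 1.40, larger than that of 90.9% of genes.

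FGFR3 differed less. It stood at -0.66, -0.58, -0.36 and -1.24 in the normals (mean -0.71 ± 0.37, SD, n = 4), and at -1.33 in tumor Za, a median of 0.01 and 1.25 in tumor 2 among the tumors. Although 21 tumors were above every normal, 6 lay within the normal range and 2 below it. The difference of 0.70 (SE 0.34, interval 0.02 to 1.39) did not reach 2-fold, and its limma adjusted p was 0.0622. The uncorrected exact permutation p was 0.0482. In the alternative table of the same libraries, normalized by the DESeq method, the difference was 0.40 with a limma adjusted p = 0.292.

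FGFBP1 had the widest spread of the 4 genes. Normals A to D stood at -1.09, -0.99, -2.28 and -1.86 (mean -1.56 ± 0.62, SD, n = 4), and the tumors ran from -3.06 in tumor Mi through a median of 0.12 to 5.05 in tumor 20. That is a 275-fold range within iUC, with an SD of 1.70 that exceeds the SD of 95.9% of genes. There were 24 tumors above every normal, 3 within the normal range and 2 below it. The mean difference was 1.76 (SE 0.84, interval 0.06 to 3.47) with a limma adjusted p = 0.0598, and the uncorrected exact permutation p was 0.0529. Without tumor 20 the difference was 1.59 with a limma adjusted p = 0.0479, so in the TMM-normalized table this call depended on 1 library. In the DESeq-normalized table of all libraries the difference was 1.46 with a limma adjusted p = 0.123. Without normal C the difference in the TMM-normalized table was 1.52 with a limma adjusted p = 0.162.

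**Figure D1:**
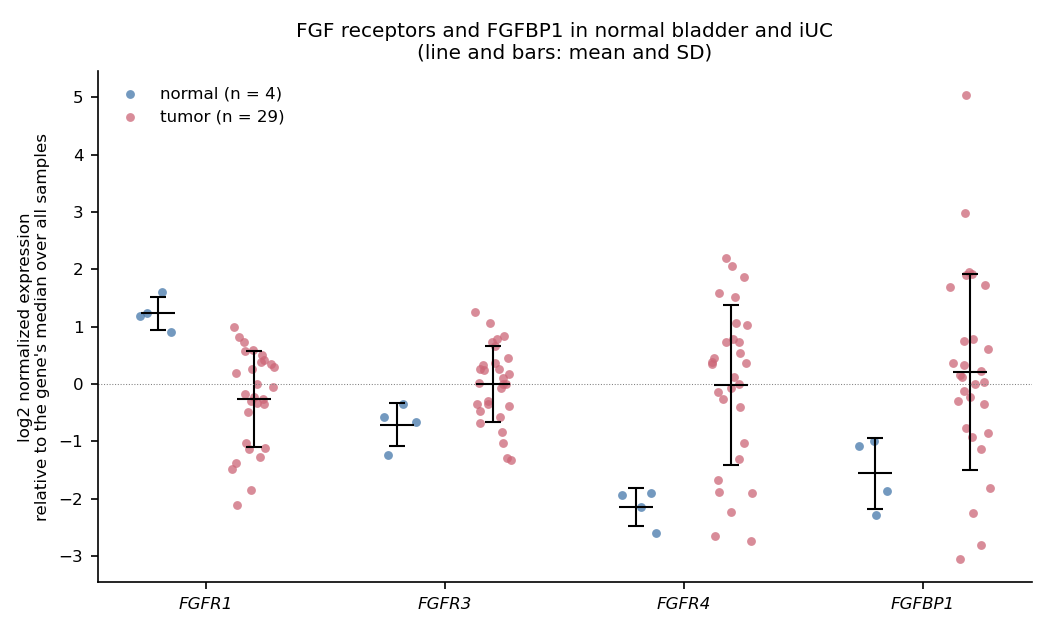
Points are single samples of normal bladder (blue, n = 4) and iUC (red, n = 29), with the mean and SD in black, and the vertical axis is log2 expression relative to each gene's median. For FGFR1, 28 of 29 tumors lie below all normals, for FGFR4 25 lie above them, and for FGFBP1 tumor 20 stands alone at 5.05.

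Markers of several cell types differed between the dissected normals and the tumors and moved with the changes above, read here against the 10.7% of all genes called higher and the 45.8% called lower. All 8 epithelial genes tested (such as OVOL1 and CLDN7) were called higher in tumors, and their mean level ran from -2.75 to -1.57 in the normals and from -0.33 to 0.60 in the tumors. All 5 smooth muscle genes were called lower, with mean levels of 4.94 to 6.97 in the normals and -1.28 to 3.89 in the tumors. Of the 9 fibroblast genes, 8 were called lower, with mean levels of 2.12 to 2.81 in the normals and -2.29 to 2.17 in the tumors. Both nerve and Schwann cell genes were also lower, 0 of 7 endothelial genes were called by limma (0 at an unadjusted p under 0.05, and 1, TEK, lower in the DESeq-normalized table), and all 7 proliferation genes were higher. Of 11 luminal urothelial genes, 7 were called higher and 1 lower, but only 2 higher in the DESeq-normalized table. Of 9 basal and squamous genes 1 was called in each direction (0 higher and 2 lower in that table), and of 11 immune genes 1 was higher and 2 were lower (1 and 3 in that table). TGM1, the only basal and squamous gene called higher, had limma adjusted p = 0.0554 there. The normals, labelled urothelial, thus stood above the median of the tumors in muscle and fibroblast transcripts and below it in epithelial ones. The part of this in the FGFR1 and FGFR4 differences was not tested.

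The tumors were next read one by one. FGFR3 and FGFR4 were both above every normal in 19 tumors, FGFR4 alone of the pair in 6, FGFR3 alone in 2, and neither in 2. FGFR3, FGFR4 and FGFBP1 exceeded every normal together in 15 tumors, and in 14 of these FGFR1 was also below every normal. Low FGFR1 together with high values of the other 3 genes was thus found in 14 of the 29 tumors. Singly, FGFR3, FGFR4 and FGFBP1 exceeded every normal in 21, 25 and 24 tumors, and FGFR1 was below every normal in 28. Such single counts alone bring much overlap, and an overlap beyond that was not tested.

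Outlying tumors were defined as those more than 1.5 interquartile ranges outside the quartiles of a gene over the 29 tumors. Only tumor 20 met this, and only for FGFBP1. Its value of 5.05 was followed by 2.99 in tumor 19, a gap of 2.06 or 4.17-fold. The same tumor had the next to lowest FGFR1 (-1.85), a low FGFR4 (-1.89) that was nonetheless above the highest normal, and an FGFR3 (0.84) of rank 27 of 29. Tumor 2 combined the highest FGFR3 (1.25) with the next to lowest FGFR4 (-2.64), and it also had the lowest proliferation score of all tumors (-2.93, on the scale of z-scores described below).

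**Figure D2:**
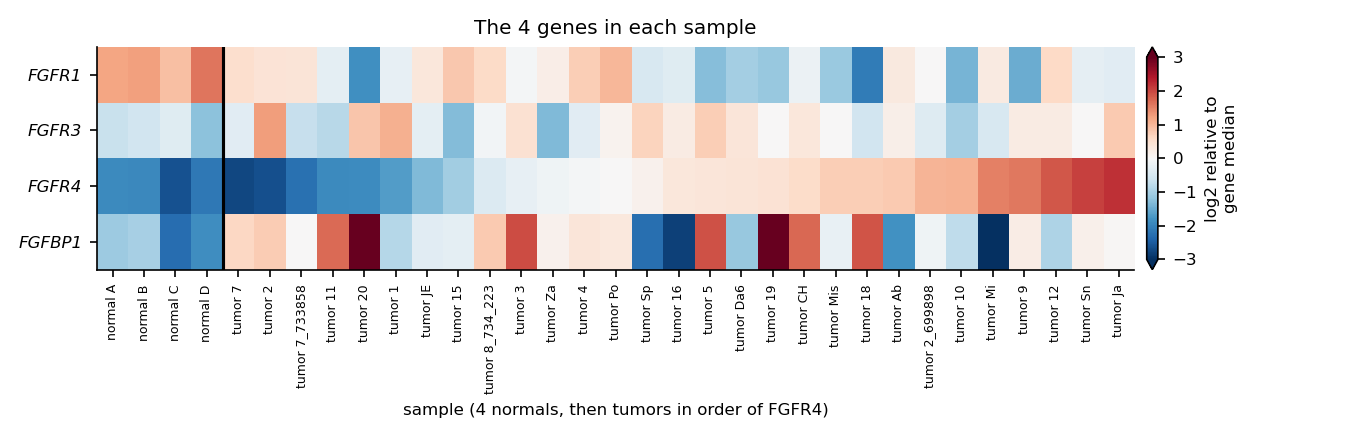
Each column is 1 sample, with the 4 normals at the left and the tumors in order of FGFR4, and colour gives log2 expression relative to the gene's median, with values past -3 or 3 at the end colours. Low FGFR4 tumors at the left include tumor 2, with the highest FGFR3, and tumor 20, with the highest FGFBP1, while FGFR1 is red in all normals.

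Whether the 4 genes moved together from tumor to tumor was asked with Pearson's r and Spearman's rho over the 29 tumors, each with a two-sided permutation p adjusted over 46 relations (6 gene pairs and 40 relations to scores). No pair passed the correction by either measure. The closest by r was FGFR1 with FGFBP1 (r = -0.37, permutation p = 0.0487, adjusted p = 0.28), with rho = -0.17 (permutation p = 0.387, adjusted p = 0.801). Leaving out the 2 tumors with the most extreme FGFR1 brought r to -0.11, so the relation rests on them. It was the only 1 of the 6 pairs with an unadjusted p under 0.05 by r, and 0 had one by rho, by which FGFR1 with FGFR4 was the closest.

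No shared pattern of the receptors was detected. FGFR3 and FGFR4 had r = 0.00425 with a 95% interval of -0.363 to 0.37 (rho = 0.0291, permutation p = 0.984 and 0.884, adjusted p = 0.984 and 0.904). FGFR1 and FGFR4 had r = -0.243, interval -0.559 to 0.136, and rho = -0.335 (permutation p = 0.204 and 0.0749, adjusted p = 0.585 and 0.344), and r was -0.374 without the 2 tumors farthest in FGFR1. FGFR1 and FGFR3 had r = -0.183, interval -0.515 to 0.197, and rho = -0.225 (permutation p = 0.339 and 0.238, adjusted p = 0.666 and 0.596). The interval of FGFR3 with FGFR4 still allows a moderate relation in either direction, and those of FGFR1 with FGFR3 and FGFR4 allow a moderate negative relation.

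FGFBP1 likewise showed no detected relation to the other receptors. With FGFR4 it had r = -0.308, interval -0.606 to 0.0664, and rho = -0.291 (permutation p = 0.104 and 0.125, adjusted p = 0.48 and 0.48). With FGFR3 it had r = 0.123, interval -0.255 to 0.469, and rho = 0.0783 (permutation p = 0.526 and 0.686, adjusted p = 0.781 and 0.856).

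Scores for 9 gene lists (the mean z-score over the tumors of each list's genes) were then set against the 4 genes, together with the percentage of olfactory receptor genes that lay above their lowest value. FGFR1 followed the fibroblast score, with r = 0.706, interval 0.458 to 0.852 (permutation p = 3e-05, adjusted p = 0.00138), and rho = 0.619 (permutation p = 0.00048, adjusted p = 0.0221). Leaving out the 2 tumors whose fibroblast score was the most extreme gave r = 0.644, and for the scores below the 2 farthest tumors are likewise those farthest from the median of that score. The 9 fibroblast genes each had a positive r with FGFR1, from 0.495 for LUM to 0.687 for COL1A2, the genes of a collagen-binding proteoglycan and a collagen chain. Tumor Po, the only tumor with FGFR1 inside the normal range, had the highest fibroblast score of the 29 (1.78).

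The endothelial score was also related to FGFR1, less firmly. Its r was 0.55, interval 0.229 to 0.763 (permutation p = 0.00203, adjusted p = 0.0467), its rho was 0.548 (permutation p = 0.00245, adjusted p = 0.0563), and r was 0.688 without the 2 farthest tumors. The adjusted p of r was 0.0501 in the DESeq-normalized table. TEK and PECAM1, a receptor and an adhesion protein of endothelium, had r = 0.682 and 0.597 with FGFR1, whereas TIE1 had r = 0.000344. These single-gene values are descriptions.

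The other scores gave no relation past the correction. FGFR1 with the score of FGF feedback genes and targets had r = 0.49 and rho = 0.508 (permutation p = 0.00698 and 0.00552, adjusted p = 0.107 and 0.0635), led by SPRY1, a sprouty inhibitor, at r = 0.606. FGFR1 with the smooth muscle score had r = 0.42 and rho = 0.473 (permutation p = 0.0221 and 0.0106, adjusted p = 0.185 and 0.0972). With the luminal urothelial score FGFR1 had r = -0.183 and rho = -0.375 (permutation p = 0.347 and 0.0463, adjusted p = 0.666 and 0.304), and r was -0.51 without the 2 farthest tumors. FGFR4 with the epithelial score had r = 0.475 and rho = 0.513 (permutation p = 0.00965 and 0.00495, adjusted p = 0.111 and 0.0635). FGFR3 had r = -0.107 with the luminal urothelial score, interval -0.456 to 0.27 (permutation p = 0.582, adjusted p = 0.822), and rho = -0.143 (permutation p = 0.453, adjusted p = 0.801), and that list held uroplakins and the urothelial regulators GATA3, FOXA1 and PPARG but not FGFR3 itself. With the basal and squamous score FGFR3 had r = 0.14 and rho = 0.0837 (permutation p = 0.466 and 0.664, adjusted p = 0.733 and 0.856).

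FGFR4 and the smooth muscle score gave r = -0.388 and rho = -0.2 (permutation p = 0.0357 and 0.296, adjusted p = 0.235 and 0.682), while the 27 tumors left after the 2 most extreme in that score were dropped gave r = 0.0172. Tumors 7 and 7_733858, of ranks 1 and 3 from the lowest in FGFR4, had the 2 highest smooth muscle scores, 2.51 and 3.03. FGFBP1 had its largest correlation with the endothelial score, r = -0.415 and rho = -0.376 (permutation p = 0.0241 and 0.0455, adjusted p = 0.185 and 0.304). With the olfactory receptor share the r of the 4 genes lay between -0.079 and 0.188, with adjusted permutation p of 0.666 or more.

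**Figure D3:**
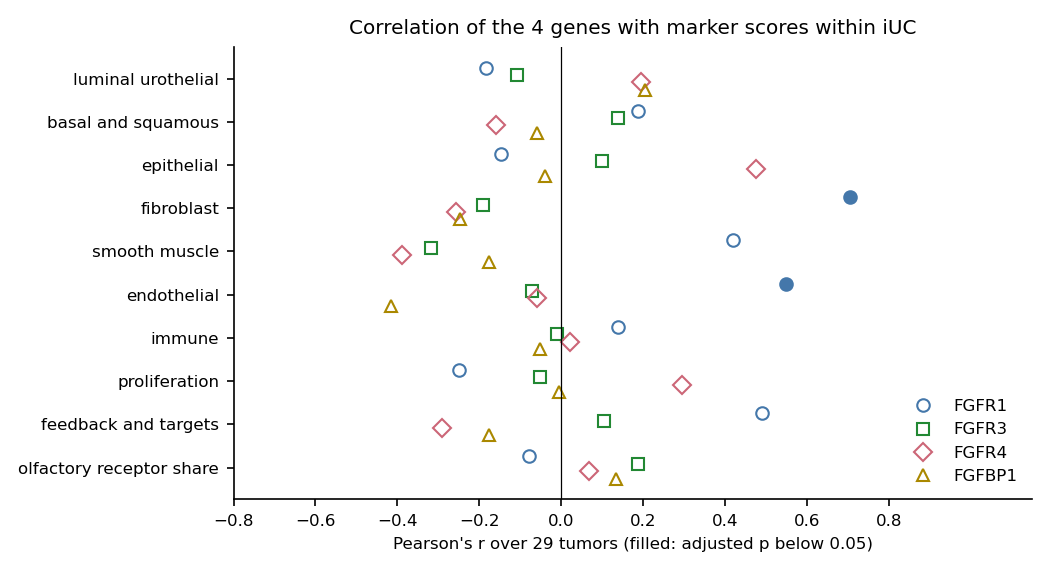
The horizontal axis is Pearson's r over 29 tumors between each gene (symbol and colour) and each score, and filled symbols have an adjusted p below 0.05. Only FGFR1 has filled symbols, at 0.706 with the fibroblast and 0.55 with the endothelial score.

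To place each gene among its fellows, the 5 genes with the highest Pearson's r over the 29 tumors were listed out of 10963 genes compared. These were picked for their r, so the values describe likeness and carry no test. FGFR1 was most like LETM2 (r = 0.904), a gene of a mitochondrial membrane protein, then ZBTB47 (0.82), a zinc finger gene, MRC2 (0.805), a receptor for collagen uptake, FKBP10 (0.805), a collagen chaperone, and ADGRA2 (0.798), an adhesion receptor. All 5 were also called lower in tumors than in normals, as were 45.8% of all genes.

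FGFR3 was most like CARD10 (r = 0.755), a scaffold of NF-kB signalling, followed by RNASE4 (0.68), a secreted ribonuclease, RPS6KA1 (0.672), a kinase downstream of ERK, HR (0.655), a transcriptional corepressor, and HS3ST1 (0.648), a heparan sulfate sulfotransferase. Against normals, RPS6KA1 was called higher, RNASE4 lower and the other 3 were not called, of which HR was called lower in the DESeq-normalized table (-1.24). FGFR4 was most like FBXW11 (r = 0.695), a ubiquitin ligase subunit, TMEM171 (0.694), SLC39A2 (0.693), a zinc transporter, VEPH1 (0.672) and KAT8 (0.671), a histone acetyltransferase. TMEM171 and FBXW11 were called higher in tumors, by 2.37 and 1.17 on the log2 scale, and FBXW11 was not called in the DESeq-normalized table (0.88).

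FGFBP1's list leaned on tumor 20. AQP11, a water channel gene, was first at r = 0.728 and kept 0.677 without that tumor. SYPL1 went from 0.645 to 0.437 and SULT1B1, a sulfotransferase gene, from 0.603 to 0.389. GATB and PCF11 went from 0.621 to 0.496 and from 0.618 to 0.542.

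Genes next to the 4 on the chromosomes were compared as well, by the gene order of the RefSeq annotation of the dog assembly UU_Cfam_GSD_1.0, which is a later assembly than the CanFam3.1 build used for the deposited values and was used only for order. FGFR1 lies on chromosome 16, FGFR4 on chromosome 4, and FGFR3 and FGFBP1 both on chromosome 3. For each gene the 3 nearest genes with a value on either side were taken, and permutation p-values of r were adjusted over these 24 relations. Of the 24, 3 passed. For these relations the 2 farthest tumors are those farthest from the median of the neighbour.

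LETM2, the gene directly beside FGFR1, had r = 0.904 and rho = 0.885 over the 29 tumors (permutation p = 1e-05 for both, the smallest these permutations can give, adjusted p = 0.00024), and r = 0.857 without the 2 farthest tumors. It was also lower in tumors than in normals, by -1.09 on the log2 scale (limma adjusted p = 0.000124). The gene models do not overlap in the RefSeq table, and how the counting treated reads between neighbouring genes, or their strand, is not given in the sources used here. The other 5 neighbours of FGFR1 (TACC1, PLEKHA2, HTRA4, NSD3 and PLPP5) had r from 0.00885 to 0.387, with adjusted permutation p of 0.142 or more.

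Around FGFR4, all 6 neighbours had a positive r, with a median of 0.408, where the median r of FGFR4 with all genes compared was -0.037. PRELID1, a mitochondrial lipid transfer gene, had r = 0.576 and rho = 0.681 (permutation p = 0.00054 and 6e-05, adjusted p = 0.00648 and 0.00072), and RAB24, a small GTPase gene, had r = 0.564 and rho = 0.569 (permutation p = 0.00137 and 0.00145, adjusted p = 0.011 and 0.0116). Without the 2 farthest tumors r was 0.516 and 0.466, while that of NSD1 went from 0.197 to -0.0545. PRELID1 and NSD1 were called higher in tumors, each by 1.18 on the log2 scale, and the other 4 were not called (10.7% of all genes were called higher). In the DESeq-normalized table these differences were 0.88 and 0.89, and 0 of the 6 were called by limma. The median r over the 6 neighbours of FGFR4 was 0.342 without the 2 farthest tumors, with 5 positive. For the neighbours of FGFR1 the median r was 0.351, with 6 of 6 positive, against 0.0206 over all genes, but 0.155 with 3 positive without the 2 farthest tumors. For FGFR3 it was 0.15 and then 0.16, with 5 of 6 positive in both, and for FGFBP1 it was 0.164 with 5 positive and then 0.0909 with 4. Of the genes most alike, FBXW11 shares chromosome 4 with FGFR4, ADGRA2 chromosome 16 with FGFR1 and HS3ST1 chromosome 3 with FGFR3. Apart from these and LETM2, all genes most alike lie on other chromosomes than their gene, including every one listed for FGFBP1.

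Around FGFR3 and FGFBP1 none of the neighbours passed. TACC3, a mitotic spindle gene next to FGFR3, rose in tumors by 2.29 on the log2 scale (limma adjusted p = 1.5e-08), while its r with FGFR3 was 0.125 (permutation p = 0.522, adjusted p = 0.627) and reached 0.547 once the 2 tumors with the most extreme TACC3 were left out. In all, 4 of the 6 neighbours of FGFR3 were called higher, against 10.7% of all genes, but only TACC3, by 1.99, in the DESeq-normalized table. Besides TACC3 and a gene with a provisional name (LOC100683724, by 1.08), these were NSD2 and SLBP, by 1.22 and 1.23, which had r = -0.00593 and 0.347 with FGFR3 (permutation, adjusted p = 0.975 and 0.174). FGFBP1's neighbours had r from -0.278 (LDB2) to 0.444 (FBXL5), and of these PROM1 was called higher by 1.57 and LDB2 lower by -1.87 on the log2 scale.

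**Figure D4:**
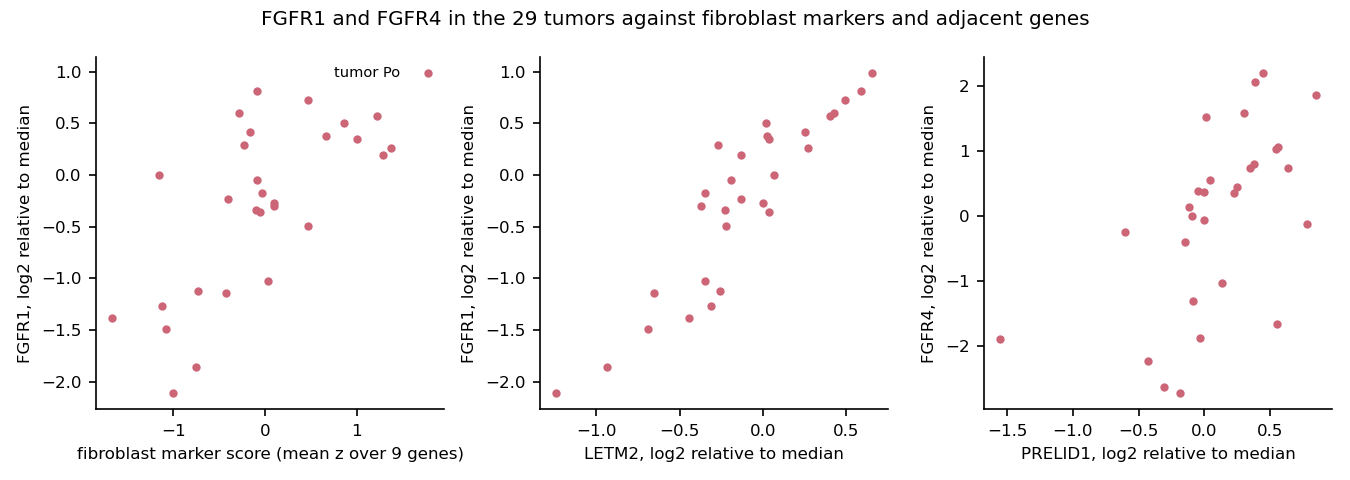
Each point is 1 of the 29 tumors, with FGFR1 or FGFR4 (log2 relative to the gene's median) on the vertical axis against the fibroblast score, LETM2 or PRELID1. FGFR1 rises with the fibroblast score (r = 0.706, tumor Po at the upper right) and with LETM2 (r = 0.904), and FGFR4 rises with PRELID1 (r = 0.576).

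The rest of the FGF pathway was described from lists of ligands, co-receptors, heparan sulfate proteins, adaptors, feedback genes and splicing regulators. Beyond the 4 genes, 57 of 88 listed genes were tested: 7 were called higher (12.3%, against 10.7% of all genes), 16 lower (28.1%, against 45.8% of all genes) and 34 were not called, with a median difference of 0.18 on the log2 scale, against -0.84 over all genes tested. In the DESeq-normalized table the median over all genes was -1.11.

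The remaining receptor gene, FGFRL1, which encodes an FGF receptor without a kinase domain, was not called: its difference was 0.01 (interval -0.73 to 0.75, limma adjusted p = 0.981). Its normals spanned -0.49 to 0.54 and its tumors -2.05 to 1.69.

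Of 12 FGF ligand genes tested, 9 were called lower, 3 were not called and 0 were called higher by limma, where 45.8% of all genes were called lower. FGF19 and FGF20 are among the 9. FGF19 passed the filter on low values largely through the normals, and FGF20 was at its lowest value in 25 of 29 tumors. The count is thus no support for a change of the ligands as a group. FGF17 and FGF18, named after their values were seen, lost their calls when 1 normal was left out (limma adjusted p up to 0.151 and 0.117). The 3 genes not called had an unadjusted p over 0.05, and the DESeq-normalized table gave the same counts. FGF10, a mesenchymal ligand of epithelial FGF receptors, had a mean of 3.97 ± 0.36 (SD, n = 4) in normals and ran from -4.71 to 2.38 in tumors, below every normal in all 29. Its difference was -4.21 (SE 0.77, limma adjusted p = 1.26e-05). FGF14, an intracellular FGF of excitable cells, fell by 5.02 (limma adjusted p = 5.42e-07), and it was at its lowest value in 9 tumors.

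FGF20 and FGF19 were listed at their lowest value in 25 and 28 of the 29 tumors and in 0 of 4 normals, so their differences of -4.04 and -3.22 depend on where the lowest value lies. FGF19, the usual ligand of FGFR4, is outside the naming rule and was named after its values were seen. Low genes of other kinds moved in the same direction. In every normal 100% of 137 olfactory receptor genes were above their lowest value, against 7.30% to 92.0% (median 21.2%) in the tumors. The part of that difference in the ligand calls was not tested. FGF11, FGF21 and FGF22 had differences of 0.20, 0.93 and 0.81 and were not called.

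Of 6 co-receptor genes tested, 3 were called lower, a share of 50.0% that is near the 45.8% of all genes. KLB, which encodes beta-klotho, the partner of FGFR4, had a mean of 1.75 ± 0.42 (SD, n = 4) in normals and was below every normal in all 29 tumors, by -2.04 (SE 0.46, limma adjusted p = 0.00023). KL, the klotho gene, fell by 3.65 (limma adjusted p = 0.00101) with 26 tumors below and 1 above every normal, and it was at its lowest value in 6 tumors. NCAM1, an adhesion protein of nerve and muscle that binds FGF receptors, fell by 6.51 (limma adjusted p = 3.9e-09), beside the nerve and muscle markers given above, and was at its lowest value in 2 tumors. The other 3 co-receptor genes tested, FLRT1, FLRT2 and FLRT3, were not called.

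Among 8 core proteins that carry heparan sulfate, 1 was called higher (12.5%) and 3 lower (37.5%), near or under the shares of all genes. AGRN, which encodes the basement membrane protein agrin, rose by 2.06 (SE 0.27, limma adjusted p = 3.19e-08) and was above every normal in all 29 tumors. HSPG2, the perlecan gene, fell by 1.36, SDC3, a syndecan gene, by 1.72, and GPC5, a glypican gene, by 5.05 (limma adjusted p = 0.00674, 0.00813 and 2.64e-07). GPC5 was at its lowest value in 10 tumors. The 4 enzymes of heparan sulfate synthesis were not called, with differences of 0.50 to 0.98. Of these, 2 (EXT1 and EXT2) had a limma adjusted p under 0.05 and missed the call by fold alone. In the DESeq-normalized table their limma adjusted p was 0.0416 and 0.169.

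The 11 adaptor and signalling genes, including FRS2, GRB2 and SOS1, all stayed under the 2-fold limit, with differences from -0.95 (FRS3) to 0.88 (SHC1), although 9 had a limma adjusted p under 0.05 and missed the call by fold alone. In the DESeq-normalized table only FRS3 and GAB2, both lower in tumors, had a limma adjusted p under 0.05 (0.00113 and 0.000511). FRS3 passed both limits there, at -1.25. Of 12 feedback genes and targets, 4 were called higher (33.3%, against 10.7% of all genes), 1 lower (8.33%, against 45.8%) and 7 were not called. DUSP4 and DUSP6, phosphatases that act on MAP kinases, rose by 3.96 and 2.28 and ETV4 by 2.51 (limma adjusted p = 1.64e-06, 1.11e-06 and 3.56e-05). ETV4 and DUSP6 were above every normal in all 29 tumors, DUSP4 in 28, which is a description without the share of all genes. SPRED2, named after its values were seen, rose by 1.28, and its difference was 0.98 in the DESeq-normalized table, under the 2-fold limit. SPRY2, a sprouty inhibitor, fell by 1.39 (limma adjusted p = 0.0167), and without normal D the difference was -1.14 with a limma adjusted p = 0.0914.

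From tumor to tumor, the targets called higher had r between -0.134 and 0.343 with the receptors. SPRED2 had r = 0.0508, 0.164 and -0.134 with FGFR1, FGFR3 and FGFR4. DUSP6 had r = 0.232, 0.193 and -0.0407 with FGFR1, FGFR3 and FGFR4, and ETV4 had r = 0.179, 0.329 and -0.106. DUSP4 had r = 0.136, -0.13 and 0.343. These are descriptions over the 29 tumors, and the score over all 12 genes did not pass the correction with any of the 4 genes.

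Splicing regulators that choose between receptor isoforms were also read, since a gene-level value cannot show isoforms. ESRP2, an epithelial splicing regulator, rose by 1.44 (limma adjusted p = 1.96e-06) and PTBP1 by 1.24 (limma adjusted p = 9.19e-10), each above every normal in all 29 tumors. In the DESeq-normalized table the PTBP1 difference was 0.94, under the 2-fold limit. RBFOX2 was not called.

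**Figure D5:**
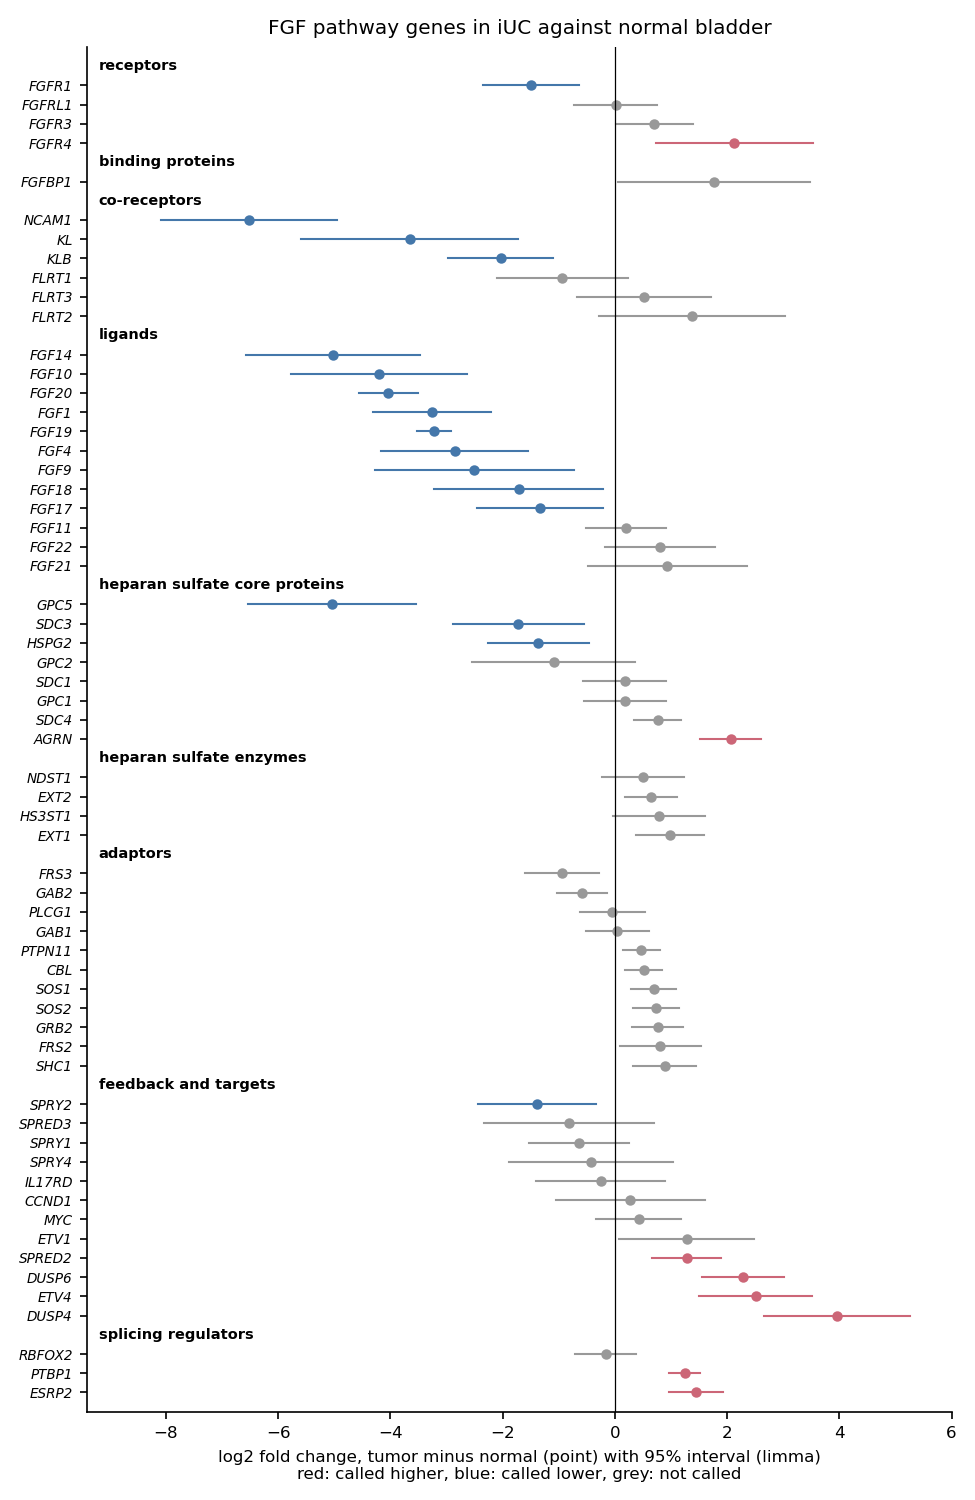
Points are log2 differences, tumor minus normal, with 95% limma intervals, grouped by role, and red, blue and grey mark genes called higher, called lower and not called. FGFR1 (-1.49) and 9 ligand genes are blue, FGFR4 (2.13), DUSP4, ETV4 and DUSP6 are red, and all 11 adaptors are grey in this TMM-normalized table.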

How the data were processed

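The deposited tables hold log2 values that, per the labels and the study's methods, the authors made from CanFam3.1 alignments in Strand NGS 3.1, normalized by TMM or by DESeq, and that the values show to be centred on each gene's median; per the labels the libraries averaged 50000000 reads, but the depth of each library is not given in the sources used here, so no counting error is given. The planned log transform was not applied, since the values were already log2. A last line that ends early was left out of each table (1 in each). Genes had to lie above their lowest value in at least 4 of 33 samples. Tumor against normal was fitted with limma 3.58.1 (trend) in R 4.3.3, checked on simulated data. The simulation gave normals and tumors the same spread for each gene, so it does not cover the smaller spread of the normals seen in the 4 genes. Correlations used 100000 permutations (Python 3.11.15). Named genes were the 4 genes, up to 3 called genes in each direction per FGF list, up to 2 per cell type list, the 5 genes most alike and 3 neighbours per side. The 4 genes and all lists were chosen with earlier results of these data known. Each library is a separate dog, per the study's methods.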

Additional observations from a re-analysis of the deposited data

Results flagged for a closer look

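The values of the 4 normals were checked for 1 sample far from the other 3, which chance alone marks in about 1 of 20 genes. The check covered 38 genes, the 4 genes and those named by rule from the FGF and cell type lists. DUSP6 in normal A stood at -1.88, where the other normals lay between -2.37 and -2.34. UPK3A, a uroplakin gene of the luminal list, stood at -3.20 in normal D, where the others lay between -1.39 and -1.18. None of FGFR1, FGFR3, FGFR4 and FGFBP1 was marked.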

How the results depend on the processing

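FGFR1 and FGFR4 kept their direction and calls under all alternatives run, and FGFR3 and FGFBP1 stayed uncalled except that FGFBP1 without tumor 20 passed (difference 1.591, limma adjusted p = 0.0479). Over the settings that leave out 1 normal, the differences ran from -1.60 to -1.37 for FGFR1, 0.53 to 0.82 for FGFR3, 1.97 to 2.21 for FGFR4 and 1.52 to 1.95 for FGFBP1. Relations to scores past the correction numbered 2, and 1 in the DESeq-normalized table, 1 with samples centred and 1 without the 4 tumors in which over 50% of olfactory receptor genes exceeded their lowest value (chosen after seeing the data). The relation lost was FGFR1 with the endothelial score (adjusted permutation p = 0.0501, 0.0575 and 0.137); the cause was not tested. FGFR3 with FGFR4 changed sign to -0.0676 without the 2 tumors farthest in FGFR3 and to -0.00891 with the olfactory share regressed out, and FGFR3 with FGFBP1 to -0.0129 without tumor 20 (also chosen after seeing the data). No paired analysis was possible because the normals came from other dogs than the tumors. With 4 normals, and only the average depth stated, small differences cannot be resolved.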
